A study of Mus musculus with 8 samples.

Results

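Cytosolic ribosomal protein genes encode the proteins of the ribosome that translates nuclear messages, and 80 of the 25239 genes in the count table were taken as members. The rule was the gene symbol (Rpl or Rps with a number and at most the letters a, x, y or l, plus Rplp0, Rplp1, Rplp2 and Rpsa, without pseudogene names) and a total of at least 80 counts over 8 libraries. The members comprised 48 genes of the large subunit and 32 of the small subunit. Of 83 symbols that met the name pattern, 3 fell short of the total: Rpl10l had 0 counts, Rpl26 had 0 and Rpl39l had 10. The members just inside the limit were Rpl30 with 140 counts, Rpl32l with 166, Rps27 with 184, Rpl34 with 507 and Rpl3l with 533, and the next was Rps4l with 6575.

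The study profiled RNA of mouse kidney after ischemia-reperfusion, an injury in which blood flow is stopped and then restored. The 4 control libraries have the genotype label wild type, and the 4 knockout libraries that of a FoxO1 deletion in myeloid cells. The knockout was made in Lyz2-CreERT2 FoxO1flox/flox mice of 8 to 10 weeks, in which the lysozyme promoter of myeloid cells drives a tamoxifen-dependent Cre recombinase. In all 8 libraries the label text lists tamoxifen at 75 mg per kg on 5 days, pentobarbital at 60 mg per kg, removal of the right kidney and clamping of the left renal vessels for 35 minutes. That text is the same for all libraries and names the knockout mice as those injected. Whether controls carried Cre or were injected too, and how long reperfusion lasted before collection, is not given in the sources used here. The tissue was dissociated with collagenase, and 1.3 µg of RNA entered each library. The deletion is meant for myeloid cells, but the RNA is that of the whole digested kidney. No label ties a library to its own animal, so p-values describe the spread between libraries, part of which may be technical. In such bulk RNA, fewer cells of a type and less RNA per cell cannot be told apart.

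Ribosomal protein messages are among the most abundant in most cells, and their products are made in matched amounts because each ribosome holds a single copy of nearly every protein. Most of these messages begin with a C followed by an unbroken stretch of pyrimidines (C or T in the DNA), the terminal oligopyrimidine or TOP motif, through which the kinase complex mTORC1 and the RNA-binding protein Larp1 set their translation and stability. In the kidney, protein synthesis and ribosome production change with growth, nutrient supply and tubule injury. The start regions of 5 members are printed to show where runs of C and T lie near their annotated starts. They comprise the 3 members that passed the test, the stalk protein gene Rplp0 and Rps6, whose product is the classical phosphorylation target downstream of mTORC1. Each line holds 80 bases, 5′ to 3′ on the gene's strand, with 50 bases before the annotated start and 30 from it. Capitals mark the longest unbroken run of C and T within 25 bases of the start.
Rpl4: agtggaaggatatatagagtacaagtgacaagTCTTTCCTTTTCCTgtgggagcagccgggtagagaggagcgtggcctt
Rpl5: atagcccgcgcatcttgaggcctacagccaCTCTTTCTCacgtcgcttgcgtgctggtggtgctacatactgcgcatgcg
Rpl15: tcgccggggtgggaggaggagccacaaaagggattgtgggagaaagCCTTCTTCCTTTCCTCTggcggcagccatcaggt
Rplp0: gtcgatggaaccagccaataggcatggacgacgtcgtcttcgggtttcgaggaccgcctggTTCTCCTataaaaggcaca
Rps6: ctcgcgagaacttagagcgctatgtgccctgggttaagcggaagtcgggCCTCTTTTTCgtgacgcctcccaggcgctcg

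The sequences come from RefSeq on GRCm38.p6, while the submitters' processing notes name mm39, so the coordinates serve only to locate these letters. They lie at chr9:64173337-64173416 on the plus strand (Rpl4), chr5:107900478-107900557 on the plus strand (Rpl5) and chr14:18270957-18271036 on the minus strand (Rpl15). The Rplp0 window is chr5:115559417-115559496 on the plus strand and that of Rps6 is chr4:86857338-86857417 on the minus strand. Each window spans the end of the promoter and the first bases of the first exon. The run measured 14 bases in Rpl4, 9 in Rpl5, 17 in Rpl15, 10 in Rps6 and 7 in Rplp0. In Rps6 it opened 1 base before the annotated start and in Rpl15 4 bases before it, and both runs cover the start. In Rpl4 it opened 18 bases and in Rpl5 20 bases before the start and ended upstream of it, and in Rplp0 it opened 12 bases after it.

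The run of C and T was more frequent in the family's promoters than in promoters at large. The RefSeq promoter table held 71 entries for 59 of the 80 members, and 46.5% of these entries had a run of at least 8 bases in this window on the gene's strand, against 19.7% of all 32851 entries. CCGGAAG, a core letter string of ETS family factors, was searched on both strands from 250 bases before to 50 after the start and occurred in 33.8% of member entries and 8.86% of all entries. AAGATGG, a core of the factor YY1, occurred in 15.5% and 6.34% by the same search. The strings can share the letters AAG, so a promoter may count for both, and a match describes letters and not a bound site. No promoter of a member on mouse chromosome 18 is printed.

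The smallest library was knockout 1 with 29044405 counts and the largest control 3 with 35530421, and 16873 to 17285 genes were detected in each. Levels are given in CPM, counts scaled to library size with TMM factors. In controls 1 to 4 the level of Foxo1, the gene deleted, was 34.5, 33.4, 33.0 and 33.9 CPM, and in knockouts 1 to 4 it was 41.4, 41.0, 42.9 and 39.3 CPM. Its edgeR log2 fold change, knockout over control, was 0.29 (SE 0.09, adjusted p = 0.0647). DESeq2 and voom called it higher, 2 of the 20 alternative settings run. Since the tissue holds many other cells that use Foxo1, these values do not check the deletion. Kidney markers were present in all libraries, and edgeR called 6 of 10 higher, against 6.45% of all genes. All 10 log2 fold changes were above 0, with a summed level of 3865 to 7411 CPM in controls and 12040 to 13600 CPM in knockouts. EdgeR called 9 of 10 injured tubule markers lower (15100 to 29750 CPM against 5933 to 6896 CPM), against 6.28% of all genes. It called 5 of 6 tested neutrophil markers lower (26.6 to 168 CPM against 5.75 to 16.3 CPM), and all 6 were below 0. The 10 macrophage markers had a median log2 fold change of 0.18 and a summed level of 193.5 to 334 CPM in controls and 219 to 366 CPM in knockouts. Among them edgeR called Itgam lower (9.72 to 41.4 CPM against 5.16 to 7.48 CPM) and none higher. At an unadjusted p under 0.05 in edgeR, 3 were lower and 1 higher. DESeq2 called 3 lower and 1 higher, and voom 1 lower and 1 higher. Csf1r was higher in every knockout than in any control (log2 fold change 0.60, edgeR adjusted p = 0.0546). Cd68 gave -0.58 (edgeR adjusted p = 0.0534), and its groups overlapped. Of the lymphocyte markers edgeR called 0 of 8 tested, voom 0 and DESeq2 1 (2 at an unadjusted p under 0.05 in edgeR; 8.00 to 23.6 CPM against 11.5 to 20.1 CPM). Of the immediate early genes, which respond to tissue handling as well as to injury, edgeR called 7 of 9 lower, against 6.28% of all genes. All 9 were below 0 (423 to 658 CPM against 232 to 256 CPM). No list had a marker at 0 in every library. Lyz2, the myeloid gene whose promoter drives the Cre, was nearly lost from a library of each group: it stood at 2.28 CPM in control 1 and 0.367 CPM in knockout 3 against 25.4 to 50.4 CPM in the other 6. Results are therefore also given without these 2 libraries. The part of these differences in the results below was not tested.

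Ribosomal protein genes leaned to lower levels in the knockout, by a small amount for most, and few of them passed the test alone. The fitted log2 fold change was below 0 for 79 of 80 members (98.75%), against 51.2% of all 15000 genes tested. The members' levels moved together across libraries, as given below, so these 79 are not independent of each other. Among members above 10 CPM the fold changes ran from -0.93 to -0.08. The median was -0.32, or 1.25 times lower, with quartiles of -0.41 and -0.25, while the median of all genes was -0.01 with quartiles of -0.27 and 0.30. All 80 members passed the filter on low counts. At an adjusted p under 0.05, with edgeR's quasi-likelihood test and Benjamini-Hochberg adjustment over all genes, 3 of 80 fell (3.75%): Rpl4, Rpl5 and Rpl15. The share of all genes called lower was 6.28%, so the count of called members did not exceed the background. No member was called higher (0 at an unadjusted p under 0.05, and 0 in DESeq2 and in voom), against 6.45% of all genes. At an unadjusted p under 0.05, 20 members (25%) were lower against 14.6% of all genes. In 8 members (10.0%) every knockout library lay below every control library, against 10.6% of all genes. The median SE of a member's log2 fold change was 0.19.

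**Figure D1:**
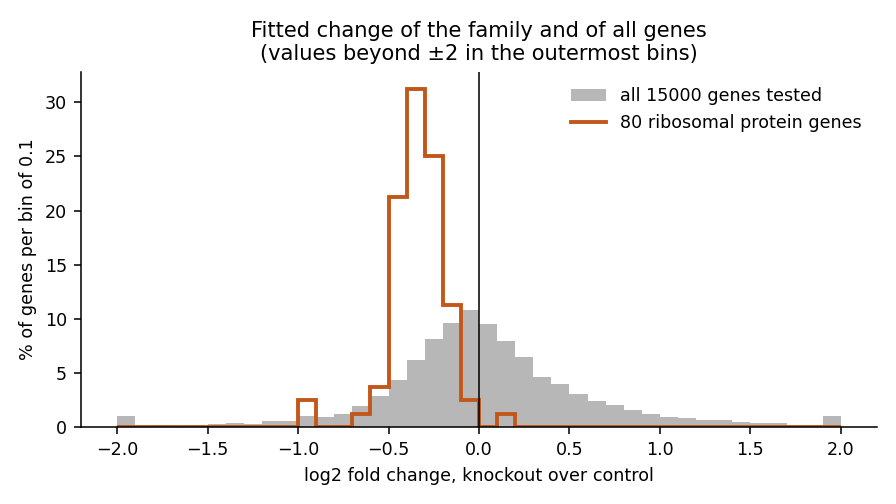
Distribution of the fitted log2 fold change, knockout over control, for all 15000 genes tested (filled) and for the 80 ribosomal protein genes (line), as percent of genes per bin of 0.1. The family forms a narrow peak around its median of -0.32, while all genes spread on both sides of a median of -0.01.

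The family's level split the knockout libraries and not only the groups. Members together took 4.28%, 4.53%, 4.10% and 4.15% of the counts in controls 1 to 4 and 4.32%, 3.56%, 2.89% and 2.90% in knockouts 1 to 4. The means were 4.27% ± 0.194 and 3.42% ± 0.675 (SD, n = 4 each). Knockout 1 lay within the range of the controls and the other 3 knockouts below it, so the groups overlapped in this share. The large subunit genes took 2.41% to 2.64% in controls and 1.69% to 2.50% in knockouts, and the small subunit genes 1.69% to 1.89% and 1.20% to 1.82%. In both subunits knockout 1 was the highest knockout and knockout 2 the next.

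Gene by gene the split had the same form. Of the 80 members, 11 lay below the lowest control in knockout 1, 54 in knockout 2, 76 in knockout 3 and 78 in knockout 4. In knockout 1, 28 members lay above the highest control and 41 within the range of the controls. Knockout 1 was the highest library of its group for 71 members and knockout 4 the lowest for 60. Among controls, control 2 was the highest for 68 members and control 1 the lowest for 56. The median deviation from each gene's mean over the 8 libraries, in log2 CPM and over the 75 members with a mean of at least 10 CPM, was 0.04, 0.35, 0.11 and 0.23 in controls 1 to 4 and 0.29, -0.08, -0.42 and -0.48 in knockouts 1 to 4.

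**Figure D2:**
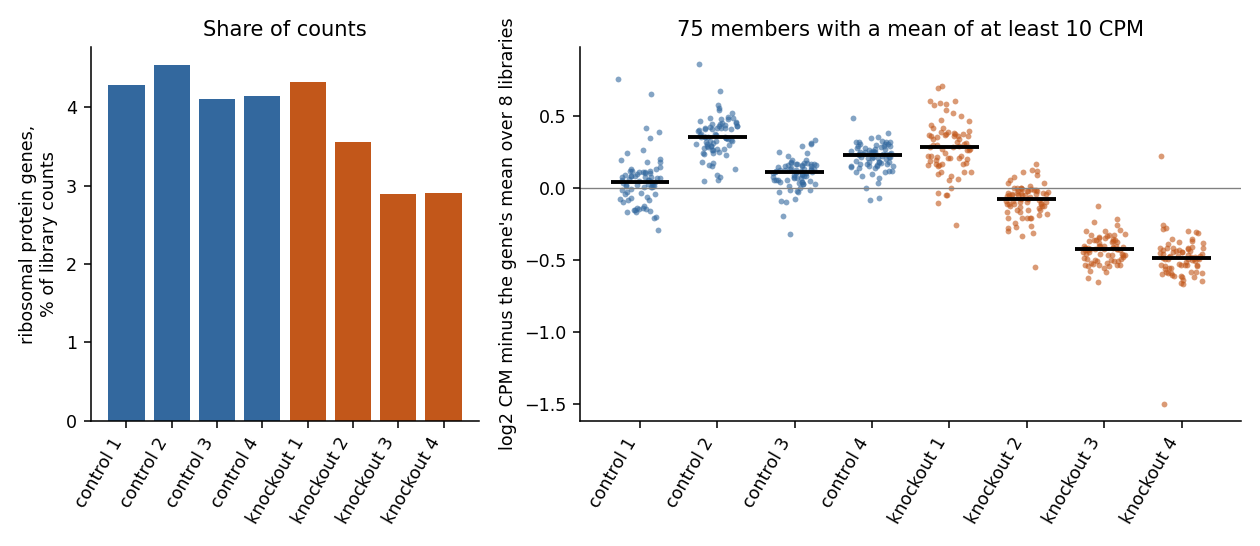
Left, share of each library's counts taken by the 80 ribosomal protein genes, in percent. Right, log2 CPM of each of 75 members minus that gene's mean over the 8 libraries, with a point per gene and a bar at the median; control libraries are blue and knockout libraries orange, knockout 1 lies among the controls and knockouts 3 and 4 lie lowest.

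The count of called members changed with the libraries included. Without knockout 1, 27 members (33.75%) were called lower, against 6.14% of all genes in the same fit, and the median was -0.51. Without control 3, knockout 2, knockout 3 or knockout 4, or without control 1 and knockout 3 together, edgeR called 0 members, and the medians ran from -0.36 to -0.22. Calls also fell over all genes in these fits, to between 907 and 1139 in either direction, against 1909 in the main fit. With limma's voom and sample quality weights, which lower the weight of libraries far from their group, 35 members were called, against 9.65% of all genes, with a median of -0.50. DESeq2 called 7 members, against 8.52% of all genes.

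The members' levels moved together across libraries. Over the 8 libraries the median Pearson correlation between pairs of the 75 members above 10 CPM was 0.92. Of these 75, 63 had a correlation of at least 0.9 with the median of the other members in each library. These points share library depth and scaling, and the value is a description. The members least like the family were Rpl29 (0.27), Rpl4 (0.53), Rpl5 (0.68), Rpl3 (0.70), Rps4l (0.70), Rpl31 (0.77) and Rps27a (0.82). The called genes Rpl4 and Rpl5 were thus among the members least like the rest, and in both knockout 1 lay below every control.

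The spread within groups was related to gene length. The 75 members above 10 CPM are short, with a median deposited length of 740 bases (390 to 5134) against 2996 bases for all tested genes. Across members, the correlation of log2 length with the difference of control 2 from control 1 was -0.43, and with the difference of knockout 1 from knockout 4 it was -0.41, so shorter members differed more between libraries of a group. When a smooth trend on length was taken out of each library, the family medians became 0.26, 0.14, 0.22 and 0.15 in controls and 0.03, -0.15, -0.24 and -0.33 in knockouts, and the groups no longer overlapped. In that fit 28 members were called lower, against 10.5% of all genes, Rpl4, Rpl5 and Rpl15 among them, and the median was -0.35. Fold changes were below 0 at both ends of the length range: of the 75 members above 10 CPM, the 36 below the median length had a median of -0.29 and the 39 others one of -0.35, and the correlation of fold change with log2 length was -0.26. Among the 36 shorter members edgeR called 0 (4 lower at an unadjusted p under 0.05), DESeq2 2 and voom 13. Lower shares over all genes were 14.6% at that unadjusted p, 8.52% in DESeq2 and 9.65% in voom.

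**Figure D3:**
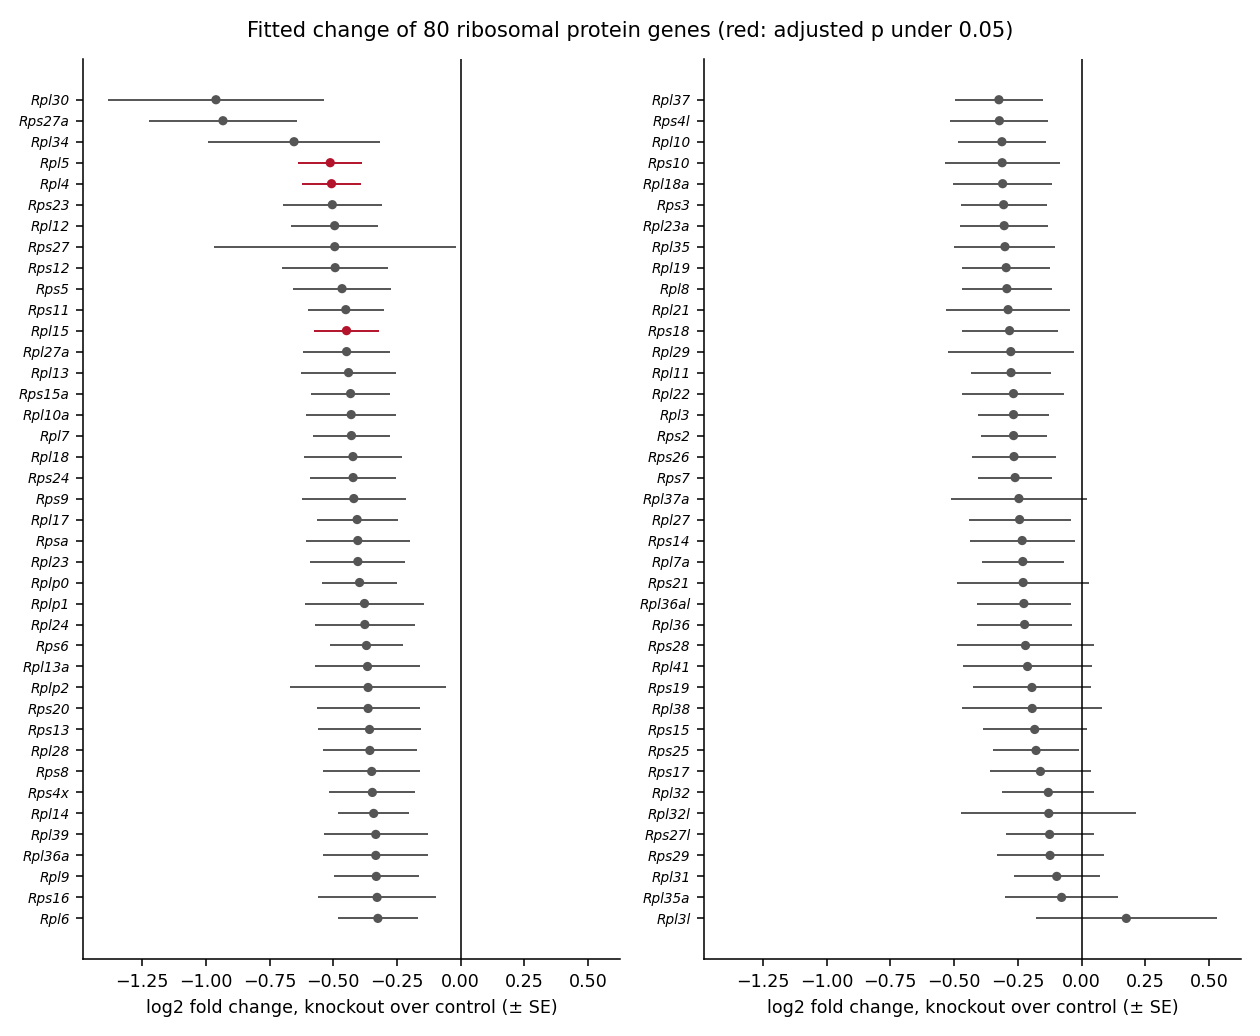
Fitted log2 fold change, knockout over control, of each of the 80 members with its SE, ordered from lowest to highest; red points passed an adjusted p under 0.05. The points run from -0.96 for Rpl30 to 0.18 for Rpl3l, and Rpl3l alone lies above 0.

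Rpl4, a protein of the large subunit that lines the peptide exit tunnel, gave the smallest p of the family. It measured 993, 842, 940 and 842 CPM in controls 1 to 4, against 635, 657, 642 and 612 CPM in knockouts 1 to 4. All 4 knockouts lay close together and below every control. The means were 904 ± 75.1 and 636.5 ± 18.8 CPM (SD, n = 4 each), a fall of 1.42 times with an edgeR log2 fold change of -0.51 (SE 0.12, adjusted p = 0.0200). The call was lost in 7 of 20 alternative settings, without control 3 or knockout 2, 3 or 4 among them, with an adjusted p of up to 0.0869. The tunnel proteins hold the nascent chain as it leaves the ribosome, and all 7 measured ones were below 0 with a median of -0.30. EdgeR called 1 of them lower, Rpl4 (2 at an unadjusted p under 0.05), while DESeq2 called 1 lower and voom 3. Of all genes, edgeR called 6.28% lower (14.6% at that unadjusted p), DESeq2 8.52% and voom 9.65%. The smallest change of the 7 tunnel members was that of Rpl31 at -0.10 (SE 0.17), which lies at the tunnel's mouth. Rpl26, also at the tunnel, is listed at 0 in all 8 libraries, so nothing can be read of it.

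Rpl5 binds the 5S ribosomal RNA together with Rpl11, and the free pair can hold back Mdm2, the protein that marks p53 for breakdown. Rpl5 stood at 586.5, 481, 552.5 and 488 CPM in controls and at 409, 387, 359 and 323 CPM in knockouts. Every knockout was below every control. The means were 527 ± 51.2 and 369.5 ± 37.3 CPM, 1.43 times lower, with an edgeR log2 fold change of -0.51 (SE 0.13, adjusted p = 0.0267). The call was lost in 6 of 20 settings, without control 3 or knockout 2, 3 or 4 among them, with an adjusted p of up to 0.108. Rpl11 stood at 525, 630, 575 and 578.5 CPM in controls and at 582, 539, 400 and 384 CPM in knockouts. Knockouts 1 and 2 lay within the range of the controls, and the log2 fold change of -0.28 (SE 0.16) did not pass (edgeR adjusted p = 0.279). The difference between Rpl5 and Rpl11 was not tested.

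Rpl15, a large subunit protein buried among the ribosomal RNA, was the third called member. It stood at 554, 628, 621 and 643 CPM in controls and at 510, 486.5, 406 and 391 CPM in knockouts. Control 1 and knockout 1 were the nearest libraries of the 2 groups, and the groups did not overlap. The means were 611.5 ± 39.5 and 448 ± 58.6 CPM, 1.36 times lower, with an edgeR log2 fold change of -0.45 (SE 0.13, adjusted p = 0.0476). This call lay nearest to the threshold: it was lost in 11 of 20 settings, without control 2, 3 or 4 or knockout 2, 3 or 4 among them, with an adjusted p of up to 0.134.

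The P stalk is the arm of the large subunit that recruits and activates the elongation factors. Its 4 genes had a median log2 fold change of -0.39. EdgeR called 0 of them (2 lower at an unadjusted p under 0.05), while DESeq2 called 2 lower and voom 4. The shares of all genes were 14.6% at that unadjusted p, 8.52% in DESeq2 and 9.65% in voom. Rplp0, the base of the stalk and a frequent reference gene in PCR assays, stood at 2102, 2208, 2073 and 2181 CPM in controls and at 1943, 1738, 1460 and 1363 CPM in knockouts. The groups did not overlap, and the edgeR log2 fold change was -0.40 (SE 0.15, adjusted p = 0.104). Rpl12, which sits next to Rplp0, gave -0.49 (SE 0.17, edgeR adjusted p = 0.0831) with no overlap. Rplp1 and Rplp2 form the pairs at the tip. Rplp1 stood at 832, 1120, 895 and 971 CPM in controls and at 1130, 705, 548 and 555 CPM in knockouts (in edgeR, log2 fold change -0.38, SE 0.23, adjusted p = 0.313). Rplp2 stood at 239, 440, 281 and 360 CPM in controls and at 450, 189, 196 and 190 CPM in knockouts (-0.36, SE 0.31, edgeR adjusted p = 0.473). For both tip genes knockout 1 was above every control and the other 3 knockouts were below every control.

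**Figure D4:**
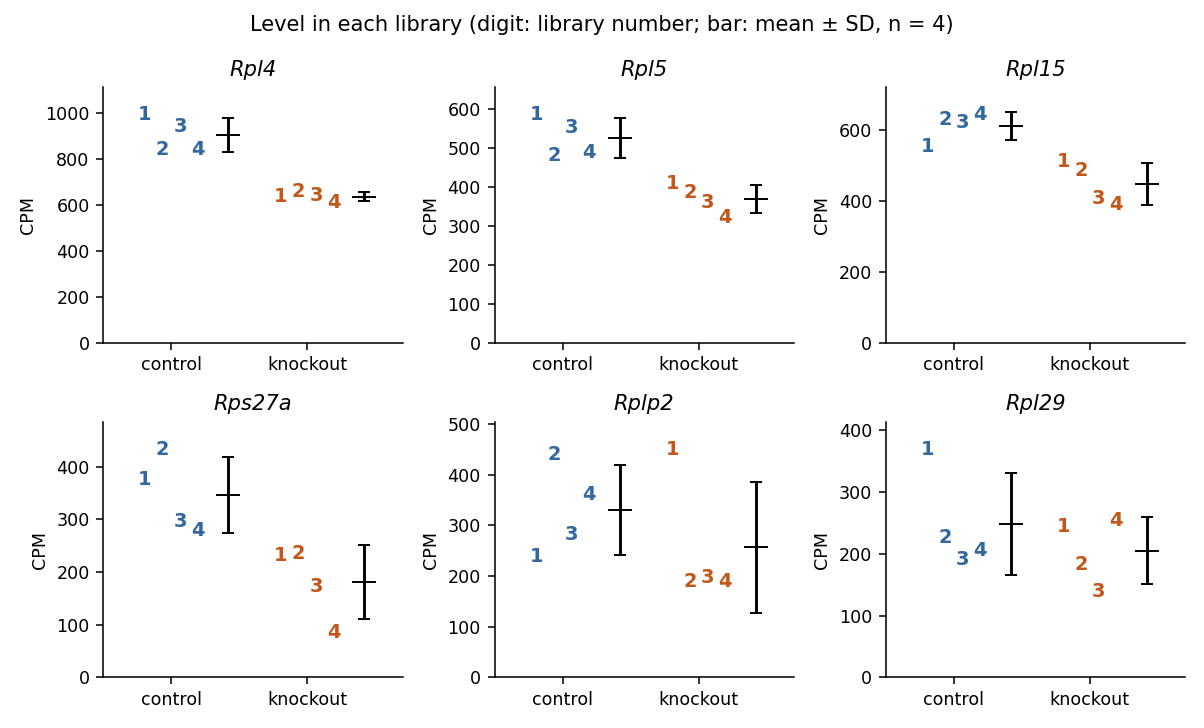
CPM of 6 members in each library, with the library number as the symbol and the mean ± SD (n = 4) beside each group. Rpl4, Rpl5, Rpl15 and Rps27a show no overlap between the groups, Rplp2 shows knockout 1 apart from the other knockouts, and Rpl29 shows control 1 above all others.

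The other large subunit genes, 33 in number, were all below 0, with a median of -0.32. EdgeR called 1 of them lower, Rpl15 (7 at an unadjusted p under 0.05), while DESeq2 called 1 lower and voom 14. Of all genes, edgeR called 6.28% lower (14.6% at that unadjusted p), DESeq2 8.52% and voom 9.65%. Rpl3, which lies at the site where peptide bonds form, stood at 855, 814, 943 and 789 CPM in controls and at 746, 839, 615 and 627 CPM in knockouts (in edgeR, log2 fold change -0.27, SE 0.14, adjusted p = 0.236). Knockout 2 lay within the range of the controls. Rpl29 had a pattern of its own, with 369, 227, 190 and 206 CPM in controls and 244, 182, 139 and 254 CPM in knockouts. Its edgeR log2 fold change of -0.28 (SE 0.25, adjusted p = 0.498) became 0.13 without control 1 and knockout 3. Rpl35a was the core large subunit gene nearest to 0, at -0.08 (SE 0.22, edgeR adjusted p = 0.853).

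In the small subunit, 32 of 32 genes were below 0 with a median of -0.33. EdgeR called 0 of them (8 lower at an unadjusted p under 0.05), while DESeq2 called 2 lower and voom 13. Of all genes, 14.6% were lower at that unadjusted p, and 8.52% were called lower by DESeq2 and 9.65% by voom. The 14 proteins of the head, which turns as messenger and transfer RNA advance, had a median of -0.29, and the 16 of the body and platform a median of -0.36. Rps27a, made as a fusion with ubiquitin and therefore also a source of free ubiquitin, had the lowest fold change among members above 10 CPM. It stood at 376, 433, 295 and 278 CPM in controls and at 231, 235, 173 and 84.7 CPM in knockouts. The groups did not overlap, but both were wide, and knockout 4 was far below the rest. The edgeR log2 fold change was -0.93 (SE 0.29, adjusted p = 0.0605), the lowest adjusted p of the members that were not called. It passed the threshold in 6 of 20 settings, among them DESeq2 (adjusted p = 0.0132) and the length trend (0.0239).

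Rps6, the substrate of S6 kinase, stood at 666, 776, 663 and 734 CPM in controls and at 669.5, 569, 481 and 477 CPM in knockouts (in edgeR, log2 fold change -0.37, SE 0.14, adjusted p = 0.115). Knockout 1 was within the range of the controls. Rpsa, a platform protein also known as the laminin receptor, stood at 1836, 2050, 1758 and 1869 CPM in controls and at 1973, 1543, 1074 and 1089 CPM in knockouts (-0.40, SE 0.20, edgeR adjusted p = 0.219). Rps2 stood at 2240, 2305, 2236 and 2285 CPM in controls and at 2139, 1913, 1781 and 1703 CPM in knockouts. These groups did not overlap, and the controls were within a few percent of each other, yet the log2 fold change of -0.27 (SE 0.13) did not pass (edgeR adjusted p = 0.203). Rps19, the gene most often mutated in Diamond-Blackfan anemia, stood at 372, 582, 424 and 504 CPM in controls and at 605, 414, 322 and 303 CPM in knockouts (-0.19, SE 0.23, edgeR adjusted p = 0.622). Rps29 gave -0.12 (SE 0.21, edgeR adjusted p = 0.739).

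Paralog variants replace a core protein in some tissues, and of the 4 that were members 3 were below 0, with a median of -0.18 and 0 called by edgeR, DESeq2 or voom (0 at an unadjusted p under 0.05). Rps4l stood at 24.6, 32.7, 19.6 and 34.1 CPM in controls and at 24.4, 24.6, 22.3 and 17.4 CPM in knockouts (in edgeR, log2 fold change -0.32, SE 0.19, adjusted p = 0.299). Rps27l, which p53 can induce, gave -0.13 (SE 0.17, edgeR adjusted p = 0.678), and Rpl36al gave -0.23 (SE 0.18, edgeR adjusted p = 0.455). Rpl3l, the striated muscle form of Rpl3, stood at 0.984, 3.00, 1.80 and 1.88 CPM in controls and at 2.84, 2.17, 1.78 and 1.87 CPM in knockouts. It was the only member with a fold change above 0 (0.18, SE 0.35, edgeR adjusted p = 0.783), and it turned to -0.044 without control 1. Reads of a paralog, a processed pseudogene or an antisense transcript can be counted for a member, so single values are less certain than for unique genes. Adding the rows of named pseudogenes to their members left 3 called. No such row belonged to Rpl4, Rpl5 or Rpl15, so this setting does not check those calls.

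Levels per kb of deposited length differed widely between members whose proteins a ribosome holds in nearly equal number. These levels also depend on that length: at 5134 bases, Rps15a ranked 74 of 80 with a control mean of 279.5 CPM. Whether the deposited length matches the transcripts present was not tested. Rpl41 had the highest level per kb, at 2327 CPM per kb over the 8 libraries, followed by Rps2 at 2077 and Rplp1 at 1804. The lowest were Rpl30 at 0.828, Rpl32l at 1.06 and Rps27 at 1.18 CPM per kb. Rpl30 stood at 0.956, 0.657, 0.618 and 0.518 CPM in controls and at 0.180, 0.347, 0.367 and 0.504 CPM in knockouts. Its groups did not overlap, but its edgeR log2 fold change of -0.96 (SE 0.42, adjusted p = 0.165) rests on 5 to 34 counts per library. Rps27 gave -0.49 (SE 0.47, edgeR adjusted p = 0.533) from 9 to 37 counts, and Rpl34 -0.65 (SE 0.34, edgeR adjusted p = 0.227) from 24 to 111 counts. Rpl30, Rps27, Rpl34 and Rpl26 encode core proteins of every ribosome, so counts at or near 0 in these libraries cannot be read as levels of their messages. How reads of these genes were assigned was not tested. None of the 5 members under 10 CPM was called, so leaving them out could not change the count of 3. The median stayed at -0.32.

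**Figure D5:**
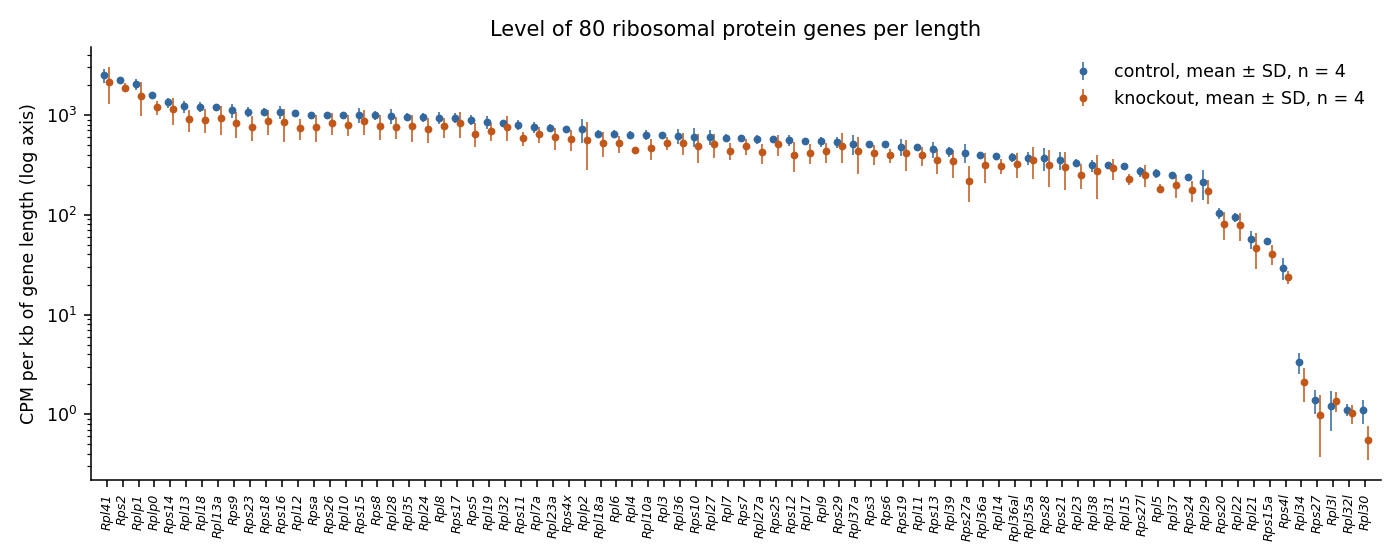
Mean level of each of the 80 members in CPM per kb of deposited gene length, on a log axis, with SD over 4 control libraries (blue) and 4 knockout libraries (orange). The 75 members above 10 CPM fall off gradually from left to right, Rpl41, Rps2 and Rplp1 lie highest, and the 5 members under 10 CPM form a separate low group at the right.

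A few genes of ribosome-bound proteins have symbols outside the name rule. Fau makes a fusion of a ribosomal protein with a ubiquitin-like protein, and Rack1 is a signalling scaffold on the small subunit. Rack1 stood at 875, 935, 902 and 973 CPM in controls and at 866, 777, 623 and 577.5 CPM in knockouts, with no overlap (edgeR log2 fold change -0.37, SE 0.15, adjusted p = 0.128). Fau was again highest in knockout 1: it stood at 363, 647.5, 383 and 515 CPM in controls and at 672, 439, 342 and 326 CPM in knockouts. Knockout 1 lay above every control, knockout 2 within their range and knockouts 3 and 4 below it.

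Among elongation factors and other genes whose messages carry a TOP motif, edgeR called 5 of 20 lower and 0 higher, against 6.28% and 6.45% of all genes. DESeq2 called 8 lower and voom 14, against 8.52% and 9.65% of all genes. The median was -0.42 and 19 of 20 were below 0. Pabpc1, the poly(A)-binding protein, stood at 822, 478, 638 and 550 CPM in controls and at 278, 303, 333 and 340 CPM in knockouts (in edgeR, log2 fold change -0.99, SE 0.17, adjusted p = 0.00681). Npm1, a nucleolar chaperone of ribosome assembly, fell by 1.07 on the log2 scale, Nap1l1, a histone chaperone, by 0.88 and Gas5, a noncoding host of small nucleolar RNAs, by 0.68. Eef1g, a subunit of the exchange factor of elongation factor 1, stood at 640, 790, 704 and 797 CPM in controls and at 591, 515, 486 and 478 CPM in knockouts (-0.50, SE 0.13, edgeR adjusted p = 0.0312). Its call was lost in 8 of 20 settings, among them without control 2, 3 or 4 or knockout 2, 3 or 4 (adjusted p up to 0.113). Eef1a1, which brings transfer RNAs to the ribosome, gave -0.41 (SE 0.13) without passing (edgeR adjusted p = 0.0704), and its groups did not overlap: 5873 to 6186 CPM in controls and 4222 to 4771 CPM in knockouts. In Pabpc1, Npm1, Nap1l1 and Gas5, knockout 1 lay below every control, as it did for 11 of the 80 members.

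In a list of 20 genes of mTORC1 and TOP regulation, with Myc among them, 2 were called higher and 2 lower. The shares of all genes were 6.45% and 6.28%, and the median of the list was -0.08. Mtor, the kinase of the complex, rose by 0.46 on the log2 scale (SE 0.13, edgeR adjusted p = 0.0466), from 88.5 to 114 CPM in controls to 116 to 155 CPM in knockouts. Sesn1, a stress-induced inhibitor of the complex, rose by 0.67 (SE 0.18, edgeR adjusted p = 0.0346). Mtor lost its call in 12 of 20 settings, among them without control 2, 3 or 4 or knockout 2, 3 or 4. Sesn1 lost it in 9, among them without control 1, 3 or 4 or knockout 1, 2 or 4. Eif4ebp1, the translation repressor that mTORC1 inactivates, fell by 1.31 (SE 0.23, edgeR adjusted p = 0.00646). Myc, a transcription factor that drives ribosome production, stood at 102, 47.9, 91.6 and 57.7 CPM in controls and at 21.1, 28.6, 29.9 and 28.5 CPM in knockouts, and fell by 1.47 (SE 0.24, edgeR adjusted p = 0.00486). Larp1 gave -0.20 (SE 0.12, edgeR adjusted p = 0.302). Phosphorylation, through which this pathway acts, was not measured.

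Chaperones and importers that deliver ribosomal proteins to the nucleolus were below 0 in 16 of 16 (median -0.40). EdgeR called 5 lower and 0 higher, against 6.28% and 6.45% of all genes. DESeq2 called 7 lower and voom 5, against 8.52% and 9.65% of all genes. Grwd1, the chaperone of Rpl3, stood at 49.7, 49.0, 49.4 and 48.1 CPM in controls and at 33.4, 31.4, 31.8 and 29.3 CPM in knockouts (in edgeR, log2 fold change -0.64, SE 0.09, adjusted p = 0.00309). Both groups were narrow and far apart, in knockout 1 as well. Rrs1 and Rpf2, which load Rpl5, Rpl11 and the 5S RNA onto the forming subunit, fell by 0.45 and 0.46 on the log2 scale. The call of Rpf2 was lost in 13 of 20 settings, among them the omission of any 1 of the 8 libraries (adjusted p up to 0.131), and that of Rrs1 in 2. Ipo5, an importer, fell by 0.44 and Bysl, a small subunit assembly factor, by 0.48. Each lost its call in 6 of 20 settings, both without control 3, knockout 2 or knockout 4, Ipo5 also without knockout 3 and Bysl also without control 4. The call of Grwd1 was kept in all 20.

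Of 9 genes of p53 and its targets, which the free Rpl5 and Rpl11 pair can act on, 5 were called lower and 0 higher, against 6.28% and 6.45% of all genes. Trp53, the gene of p53, fell by 0.66 on the log2 scale (SE 0.12, edgeR adjusted p = 0.00765). Its targets Cdkn1a (-1.29), Phlda3 (-0.69), Bbc3 (-0.82) and Eda2r (-1.67) fell as well. Eda2r lost its call in 9 of 20 settings, voom and the omission of any library but control 2 or control 4 among them (adjusted p up to 0.156). Bbc3 lost it in 6, among them without control 2 or knockout 2, 3 or 4 (up to 0.0997), and Trp53, Cdkn1a and Phlda3 in 0 of 20. Cdkn1a also belongs to the injured tubule markers above. Mdm2 gave -0.11 (SE 0.16, edgeR adjusted p = 0.699). Factors of ribosome quality control and hibernation, which clear or store stalled ribosomes, had 0 of 12 called by edgeR (2 at an unadjusted p under 0.05). DESeq2 called 2 lower and voom 1, against 8.52% and 9.65% of all genes. Of these 12, 11 were below 0, with a median of -0.20.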

How the data were processed

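For 8 kidney libraries (4 control, 4 knockout) the authors deposited raw counts and a length for every gene. The build mm39, the aligner HISAT2 2.2.1, the quantifier Salmon 1.10.2, the trimmer Trim Galore 0.6.2 and the read check FastQC are listed in the submitters' processing notes; which tool made the counts is not given in the sources used here. The library kit does not mark strand. Genes were taken by symbol, because the identifier column does not match the symbols. Between 68.7% and 70.9% of counts from 1 to 20 were even, so a count may stand for less than 1 fragment, and depth gives counting error only.

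The fit used edgeR 4.0.16 in R 4.3.3 over all 15000 genes that passed filterByExpr (minimum count 10), with TMM factors, glmQLFit and glmQLFTest without covariates, and Benjamini-Hochberg adjustment; each SE follows from the fold change and its F value. CPM levels use the TMM factors. Alternatives were other scalings, DESeq2 1.42.0, voom from limma 3.58.1, no filter, length and GC trends, a replicate block, added pseudogene rows and left-out libraries.

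The members and lists were chosen with earlier results of these data known. Genes named by rule were 10 fixed members, paralog variants, called members, the 5 highest and 5 lowest fold changes, the 3 highest and 3 lowest levels per kb, up to 5 called genes per list and Foxo1. Other genes, Rpl12, Rpl29, Rack1, Fau, Eef1a1, Larp1 and Mdm2 among them, and the promoter strings were chosen after values or sequences were seen. Counts over the list of related genes outside the name rule are not reported here.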

Additional observations from a re-analysis of the deposited data

Results flagged for a closer look

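Of 96 groups of 4 libraries looked at among the named genes, 4 had a library far from the other 3 by Dixon's criterion, where chance gives about 1 in 20. All 4 concerned knockout 1. Rplp2 stood at 450.0 CPM in knockout 1 against 189 to 196 CPM in the other knockouts. Rpl32l stood at 0.792 CPM there against 0.521 to 0.563 CPM, which at 18 to 25 counts per library is a difference of a few counts. Myc was lower in knockout 1, at 21.1 CPM against 28.5 to 29.9 CPM. Mtor was also lower there, at 115.6 CPM against 149 to 155 CPM.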

How the results depend on the processing

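In every setting run, 0 members were called higher, and the median log2 fold change stayed below 0. In the fits on all 8 libraries 79 of 80 members were below 0. The 3 members called lower became 7 with DESeq2, 35 with voom and sample quality weights (median -0.50) and 28 with the length trend removed. The share of all genes called lower also rose, from 6.28% to 8.52%, 9.65% and 10.5% in these fits. With length and GC trends removed 32 members were called. Over all genes that fit called 2751 in either direction, against 1909 in the main fit. Leaving out 1 library gave 0 to 27 called, with medians from -0.51 to -0.22, and leaving out control 1 and knockout 3 together gave 0. Over all genes 907 to 1984 were called in either direction with 1 library left out, and 1045 without those 2. With the replicate number as a replicate block 1 member was called, Rps27a, and 865 of all genes in either direction. With the block and the length trend 9 members were called, and 1622 of all genes. Same-numbered libraries did not deviate together (correlations -0.20, 0.04, 0.15 and -0.16). With 4 libraries a group, these values cannot show whether such libraries share more than a number. Other scalings gave 2 to 4. Direction turned for 4 members that were not called: Rpl31 (0.040 without control 1 and knockout 3; -0.24 to 0.017 with 1 library left out), Rpl35a (-0.34 to 0.037), Rpl3l (-0.044 to 0.48) and Rpl29 (0.13 without control 1 and knockout 3). Shares of counts kept their values within 1 SD. The median SE of 0.19 limits a single member: with 4 libraries a group, a change near the family's median did not pass for most members. Leaving out members under 10 CPM was chosen after seeing the data.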
